A study of Mus musculus with 6 samples.

Results

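Cxcl12 and its receptors Cxcr4 and Ackr3 are 3 of the 15703 genes listed in an RNA sequencing table of mouse neocortex at postnatal day 0. They were taken from the table by gene symbol, and all 3 were listed with values above 0 in every library. The study asked how gene expression changes after loss of the transcription factor Tcf4. It compared 3 conditional knockouts (cKO; Tcf4 f/f; Emx1Cre/+) with 3 animals labelled WT, all C57BL/6. Cre is driven by Emx1, a gene of dorsal forebrain progenitors that give rise to projection neurons and astroglia, so cells from other sources in the dissected tissue keep Tcf4. The labels give no floxed allele or Cre for the WT animals. Values are FPKM (fragments assigned to a gene per kilobase of its exons and per 1e6 fragments, as the authors scaled them) given as mean ± SD with n = 3 libraries per group.

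CXCL12 is a secreted chemokine that guides migrating cells. It signals through CXCR4, a receptor coupled to inhibitory G proteins. ACKR3 binds the same ligand, recruits arrestins rather than signalling through G proteins, and takes CXCL12 into the cell, which limits how much remains for CXCR4. In the embryonic mouse cortex the meninges and intermediate progenitors supply CXCL12. Cajal-Retzius cells and tangentially migrating interneurons carry CXCR4, and migrating interneurons also carry ACKR3.

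In the cKO neocortex both receptor genes fell and the ligand gene did not pass the test. Ackr3 fell by 25.9% and Cxcr4 fell by 20.4%, while Cxcl12 averaged 12.3% higher, within the spread of the WT libraries. Both receptor genes therefore lay in the 8.59% of genes called lower in cKO, where a gene is called at an adjusted p under 0.05 (limma on log2(FPKM + 1), Benjamini-Hochberg over 15703 genes). The call of Ackr3 held without 5 of the 6 libraries in turn, and that of Cxcr4 without 1.

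Tcf4 itself was 56.5, 60.6 and 55.3 FPKM in cKO 1, 2 and 3, against 71.2, 75.6 and 75.3 FPKM in WT 1, 2 and 3, which checks the labels (log2 change −0.36, SE 0.0617, limma adjusted p = 0.00411). This value counts all exons and all cells of the tissue. About 25.4 to 28.8 M reads (1e6 reads) per library fell in listed genes, as estimated from the FPKM values. Median-ratio size factors computed on the deposited values were 1.003 in each of the 6 libraries to 4 digits, so the values were already on 1 scale. The library size that turns them into whole reads, 23.2 to 26.1 M, was below the summed reads in each library, so the divisor may not be the plain number of fragments. No library was set apart for its depth.

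The 3 genes lie at separate places on 2 chromosomes of the mouse genome build mm10 in the GENCODE M21 annotation. Cxcl12 (ENSMUSG00000061353) spans 117168535 to 117181367 on the plus strand of chromosome 6, with 8176 bases of exon. The annotation gives it 4 transcripts, 3 of them protein-coding, which the table sums into 1 value. Cxcr4 (ENSMUSG00000045382) spans 128588199 to 128592293 on the minus strand of chromosome 1, with 1808 bases of exon. Ackr3 (ENSMUSG00000044337) spans 90203980 to 90216751 on the plus strand of chromosome 1, with 3348 bases of exon. No exon of the 3 genes overlaps an exon of another annotated gene, so their reads need no strand information to be assigned.

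The promoters of the 3 genes are shown because 2 of the 3 genes fell together and because Tcf4, a basic helix-loop-helix factor, binds the E-box letters CANNTG. Each sequence is the 250 bases before the start given by RefSeq for GRCm38.p6, read 5′ to 3′ on the gene's strand, at chr6:117168285-117168534 (plus) for Cxcl12, chr1:128592300-128592549 (minus) for Cxcr4 and chr1:90203730-90203979 (plus) for Ackr3. Capitals mark the TATA letters TATAAA on either strand.
Cxcl12: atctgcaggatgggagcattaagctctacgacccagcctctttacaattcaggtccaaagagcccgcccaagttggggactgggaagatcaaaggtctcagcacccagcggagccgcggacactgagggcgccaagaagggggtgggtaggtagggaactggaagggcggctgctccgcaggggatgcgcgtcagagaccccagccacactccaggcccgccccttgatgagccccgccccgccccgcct
Cxcr4: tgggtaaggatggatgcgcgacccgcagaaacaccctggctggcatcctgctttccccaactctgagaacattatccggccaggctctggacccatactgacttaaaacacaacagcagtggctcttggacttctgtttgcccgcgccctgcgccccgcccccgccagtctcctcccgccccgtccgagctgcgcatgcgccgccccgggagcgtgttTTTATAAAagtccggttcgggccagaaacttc
Ackr3: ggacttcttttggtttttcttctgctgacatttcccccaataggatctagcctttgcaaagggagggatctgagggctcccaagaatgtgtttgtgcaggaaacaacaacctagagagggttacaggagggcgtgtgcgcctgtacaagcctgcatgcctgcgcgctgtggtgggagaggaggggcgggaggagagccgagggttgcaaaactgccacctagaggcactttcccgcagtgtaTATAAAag

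None of these 3 windows holds CANNTG, whose letters read the same pattern on both strands. Of all 32851 promoter windows of the same length, 66.2% hold at least 1. The letters TATAAA occur in the windows of both receptor genes and not in that of Cxcl12, and 12.4% of all windows hold them. In Cxcr4 they occur on both strands at overlapping places, from 32 to 27 and from 30 to 25 bases before the start, and in Ackr3 from 8 to 3 bases before it. These matches describe the letters alone, and binding was not measured.

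By FPKM, Cxcr4 was the highest of the 3 genes and Cxcl12 the lowest in every library. FPKM divides by exon length, here 8176 bases for Cxcl12, 1808 for Cxcr4 and 3348 for Ackr3. By estimated reads the order was another: in cKO Cxcl12 had 754 to 799, Cxcr4 553 to 744 and Ackr3 333 to 402. In WT they had 657 to 781, 762 to 961 and 479 to 524. The order between genes therefore depends on the exon length used. By the mean of the 6 libraries Cxcr4 ranked 3195th of 15703 genes, Ackr3 7909th and Cxcl12 9294th. In cKO the means were 15.1 FPKM for Cxcr4, 4.59 FPKM for Ackr3 and 4.01 FPKM for Cxcl12. In WT they were 19.0 FPKM for Cxcr4, 6.20 FPKM for Ackr3 and 3.57 FPKM for Cxcl12. Ackr3 and Cxcl12 lay closest in cKO 1, at 4.20 and 4.03 FPKM, a gap of the size of the counting error of Ackr3 there.

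**Figure D1:**
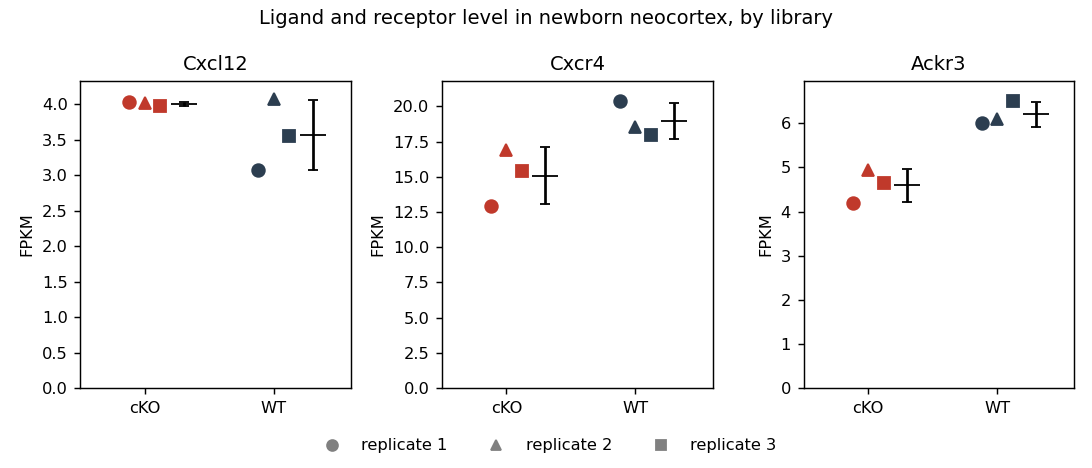
Level of Cxcl12, Cxcr4 and Ackr3 in FPKM in each library of newborn neocortex, cKO left and WT right; symbols mark the replicate number and black bars the mean ± SD of 3 libraries. Both receptor genes are lower in each cKO library than in every WT library, while the Cxcl12 values of the cKO libraries, 3.97 to 4.03, lie inside the WT range of 3.08 to 4.07.

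The ligand gene, Cxcl12, stood at 4.03, 4.02 and 3.97 FPKM in cKO 1, 2 and 3, against 3.08, 4.07 and 3.55 FPKM in WT 1, 2 and 3. The cKO libraries were nearly equal and the WT libraries spread around them, so the groups overlap. The mean was 4.01 ± 0.0287 FPKM in cKO and 3.57 ± 0.496 FPKM in WT. The log2 change was 0.14 (95% interval −0.07 to 0.34, limma adjusted p = 0.332), and the exact permutation test over the 6 libraries gave a 2-sided p of 0.4. Estimated reads were 754 to 799 in cKO and 657 to 781 in WT. The coefficient of variation was 0.716% in cKO, below the 3.59% that counting error alone gives on average at that depth, and 13.9% in WT, above its 3.76%. Without WT 1, the library with the lowest value, the log2 change was 0.06, and without WT 2 it was 0.22 (limma adjusted p = 0.731 and 0.117).

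The signalling receptor gene, Cxcr4, stood at 12.9, 16.9 and 15.4 FPKM in cKO 1, 2 and 3, against 20.4, 18.5 and 18.0 FPKM in WT 1, 2 and 3. The groups do not overlap, with the cKO libraries below in both Cxcr4 and Ackr3, as in 18.7% of all genes. The gap is narrow for Cxcr4: cKO 2 at 16.9 FPKM comes close to WT 3 at 18.0 FPKM. The mean was 15.1 ± 2.02 FPKM in cKO and 19.0 ± 1.26 FPKM in WT, a log2 change of −0.32 (95% interval −0.53 to −0.11, limma adjusted p = 0.048). This call stood at the edge of the threshold. It held without cKO 2 (limma adjusted p = 0.0348) and was lost without cKO 1 (0.145), cKO 3 (0.0838), WT 1 (0.161), WT 2 (0.0609) and WT 3 (0.0555), with a log2 change of −0.22 without cKO 1 and −0.40 without cKO 2.

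The scavenging receptor gene, Ackr3, stood at 4.20, 4.94 and 4.64 FPKM in cKO 1, 2 and 3, against 6.00, 6.09 and 6.51 FPKM in WT 1, 2 and 3. Each cKO library lay at least 1 FPKM below each WT library. The mean was 4.59 ± 0.371 FPKM in cKO and 6.20 ± 0.274 FPKM in WT, a log2 change of −0.37 (SE 0.0793, 95% interval −0.54 to −0.19, limma adjusted p = 0.0128). Estimated reads were 333 to 402 in cKO and 479 to 524 in WT. Without cKO 1, the library with the lowest value, the change was −0.31 and the call was lost (limma adjusted p = 0.0537). For Ackr3 and for Cxcr4 the exact permutation test gave a 2-sided p of 0.1, the smallest that 3 libraries against 3 can give.

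Both changes were larger than the median absolute log2 change of all genes, 0.13, and smaller than that of the called genes, 0.41. cKO 1 had the lowest level of both receptor genes. Among the libraries of 1 group, Cxcr4 and Ackr3 did not keep the same order in WT, where WT 1 was highest for Cxcr4 and WT 3 for Ackr3. In bulk tissue, fewer cells that carry a receptor and less message per cell cannot be told apart.

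**Figure D2:**
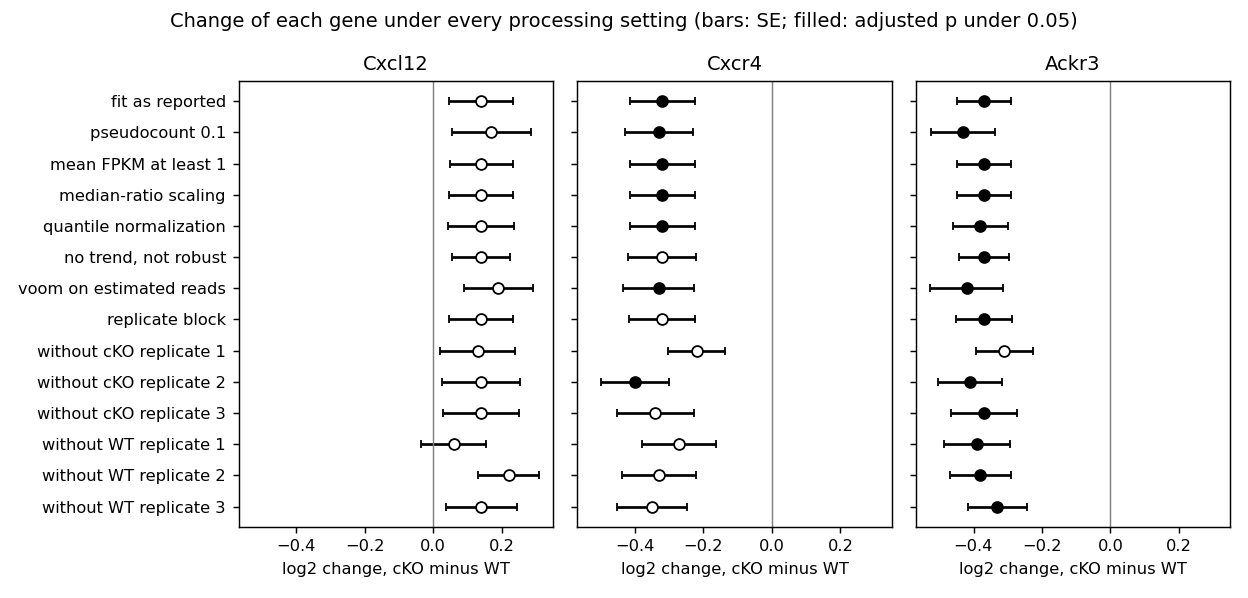
Log2 change of each gene, cKO minus WT, under the reported fit and 13 other settings; bars are the standard error and filled points have an adjusted p under 0.05. Ackr3 lies between −0.43 and −0.31 and is filled in all settings but the one without cKO 1, Cxcr4 lies between −0.40 and −0.22 and is filled in 7 of the 14 rows, and Cxcl12 lies between 0.06 and 0.22 and is never filled.

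Ratios within a library do not depend on library scaling. The ratio of Cxcl12 to Cxcr4 was 0.312, 0.238 and 0.258 in cKO 1, 2 and 3, against 0.151, 0.220 and 0.198 in WT 1, 2 and 3. The ratio of Cxcl12 to Ackr3 was 0.958, 0.814 and 0.857 in cKO, against 0.514, 0.668 and 0.546 in WT. In both ratios every cKO library lay above every WT library, and the mean ratio was 1.42 times the WT mean for Cxcr4 and 1.52 times for Ackr3. The ratio between the receptor genes, Ackr3 to Cxcr4, was 0.325, 0.292 and 0.301 in cKO and 0.294, 0.329 and 0.362 in WT, and these groups overlap. Whether the changes of the receptor genes differ was not tested. The ratios with Cxcl12 reuse the receptor values, whose groups already do not overlap, and Cxcl12 itself did not pass. All ratios are given as descriptions with no test, and the share of other gene pairs without overlap was not computed.

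**Figure D3:**
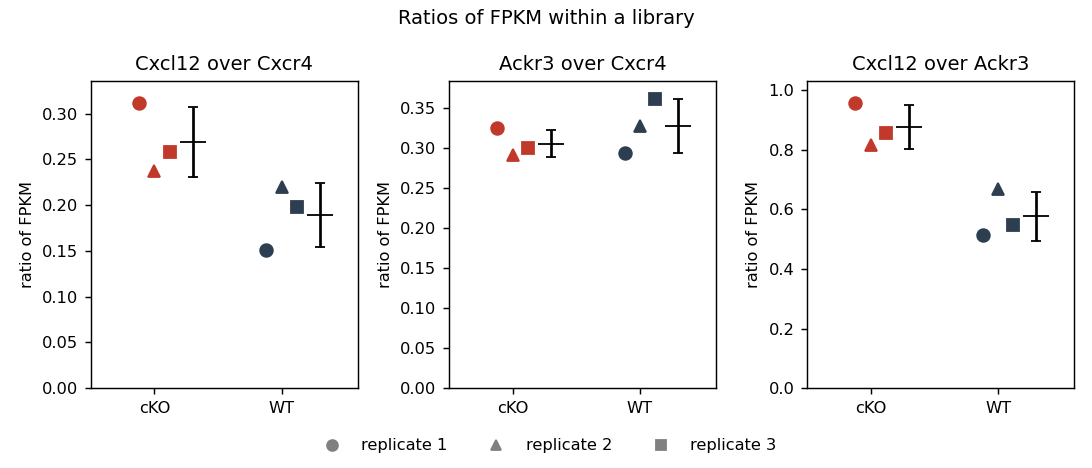
Ratios of FPKM within each library for the 3 pairs of genes, cKO left and WT right; symbols mark the replicate number and black bars the mean ± SD of 3 libraries. Ligand over receptor is higher in each cKO library than in every WT library for both receptors, and Ackr3 over Cxcr4 overlaps between the groups.

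The genes whose level across the 6 libraries most resembled that of each member were found by Pearson's r of log2(FPKM + 1) among 11325 other genes with a mean of at least 1 FPKM. The highest of so many values over 6 libraries in 2 groups are high by selection and describe these libraries only. For Ackr3 they were Zbtb7a (r = 0.998), Slc37a1 (0.995), Klhdc8a (0.995) and Blmh (0.991). Klhdc8a stood at 0.732 FPKM in cKO and 1.52 FPKM in WT and was called lower (limma adjusted p = 0.00476), while the other 3 did not pass. For Cxcr4 they were Phgdh, an enzyme of serine synthesis (r = 0.993), Klhl34 (0.990), Specc1 (0.990) and Cacng5 (0.986). For Cxcl12 they were Rmdn3 (r = 0.995), Vps50 (0.992), Amacr (0.989) and Adprm (0.978), each with its lowest value in WT 1.

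Other genes of the pathway were followed in 8 lists that hold 133 genes, 95 of them in the table. Of these 95, 8 rose, 4 fell and 83 did not pass, so 12.6% were called, against 15.8% of all genes (7.22% higher and 8.59% lower in cKO), and their median log2 change rounds to 0. Without WT 2, 15 members were called higher, and without cKO 1 or cKO 2 only 2 were called lower.

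Of 5 genes for other ligands of these receptors 4 were in the table, of which 1 rose, 1 fell and 2 did not pass. Cxcl14, whose product is a chemokine reported to bind CXCR4, was at 2.64, 3.18 and 2.75 FPKM in cKO 1, 2 and 3, against 4.40, 4.84 and 5.03 FPKM in WT 1, 2 and 3. Cxcl14 fell, with a log2 change of −0.58 (limma adjusted p = 0.0021). Adm, which encodes adrenomedullin, a peptide that ACKR3 also takes up, was at 1.801, 1.02 and 1.23 FPKM in cKO and 0.285, 0.526 and 0.395 FPKM in WT. Adm rose, with a log2 change of 0.73 (limma adjusted p = 0.00321), and as for Cxcl14 the groups do not overlap and the call held without each library in turn. Mif and Hmgb1, abundant genes whose proteins act on CXCR4 directly or together with CXCL12, did not pass: Mif averaged 276 FPKM in cKO and 286 FPKM in WT, and Hmgb1 86.4 FPKM in cKO and 92.1 FPKM in WT.

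CXCL12 is held at cell surfaces by heparan sulfate and cut by proteases. Of 18 genes for this display and processing, 3 rose (16.7%, against 7.22% of all genes), 1 fell (5.56%, against 8.59%) and 14 did not pass. Ndst3, an enzyme that adds sulfate to heparan chains, rose to 5.51, 4.81 and 4.17 FPKM in cKO 1, 2 and 3, against 1.16, 1.57 and 1.16 FPKM in WT (log2 change 1.34, limma adjusted p = 6.36e-05). The heparan sulfate carriers Gpc2 and Gpc4 also rose, Gpc4 to 11.4 ± 0.872 FPKM in cKO against 8.03 ± 0.865 FPKM in WT. Gpc2 averaged 7.88 ± 0.710 FPKM in cKO and 4.61 ± 0.793 FPKM in WT, but 55.6% of its exon length is shared with an annotated gene on the same strand, so part of its reads cannot be assigned to 1 of them. Sdc4, a syndecan, fell to 0.564 ± 0.135 FPKM in cKO, against 0.942 ± 0.127 FPKM in WT (limma adjusted p = 0.0364), a call lost without 4 libraries (up to 0.13 without cKO 1). Without cKO 1, cKO 2, WT 1 or WT 3 no member of the list was called lower, and without WT 2 there were 2.

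CXCR4 signals through inhibitory G proteins. Of 10 G protein genes, 1 rose (10%, against 7.22% of all genes) and 9 did not pass, with a median log2 change of −0.09. The gene that rose was Gnai1, an inhibitory alpha subunit, at 57.2, 53.8 and 58.0 FPKM in cKO 1, 2 and 3, against 40.3, 44.1 and 38.2 FPKM in WT 1, 2 and 3 (log2 change 0.45, limma adjusted p = 0.00209). Of 7 arrestin and receptor kinase genes, which switch receptors off and mark them for uptake, 1 rose (14.3%) and 6 did not pass. It was Grk3, a kinase of activated receptors, at 14.1 ± 0.676 FPKM in cKO and 10.99 ± 0.610 FPKM in WT (limma adjusted p = 0.0107). Both calls held without each library in turn. None of 12 genes of receptor sorting and degradation passed limma's test, 5 of them had an unadjusted p under 0.05, and 2 were called higher without WT 2 and with voom on estimated reads. The most abundant of them, Rab7 and Rab11a, averaged 71.0 and 55.7 FPKM in cKO, against 75.8 and 60.1 FPKM in WT.

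Of 33 effectors of migration downstream of CXCR4, 2 rose, 2 fell and 29 did not pass. That is 6.06% in each direction, below the 7.22% of all genes called higher and 8.59% called lower. Elmo1, a partner of DOCK proteins in Rac activation, rose to 10.1, 9.72 and 9.58 FPKM in cKO 1, 2 and 3, against 6.01, 6.18 and 5.26 FPKM in WT (log2 change 0.67, limma adjusted p = 0.000411). Ptk2b, which encodes the focal adhesion kinase relative PYK2, fell to 5.14 ± 0.405 FPKM in cKO, against 7.85 ± 0.941 FPKM in WT (log2 change −0.52, limma adjusted p = 0.00526). Ptk2, the focal adhesion kinase, was at 29.5 ± 0.665 FPKM in cKO and 34.9 ± 1.86 FPKM in WT, and Jak2 at 32.6 ± 1.02 FPKM in cKO and 25.2 ± 4.33 FPKM in WT. The calls of Ptk2 (lower) and Jak2 (higher) were each lost without 5 libraries, with limma adjusted p of up to 0.0867 and 0.115 without cKO 1. Without WT 2, 5 effectors were called higher and 1 lower.

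**Figure D4:**
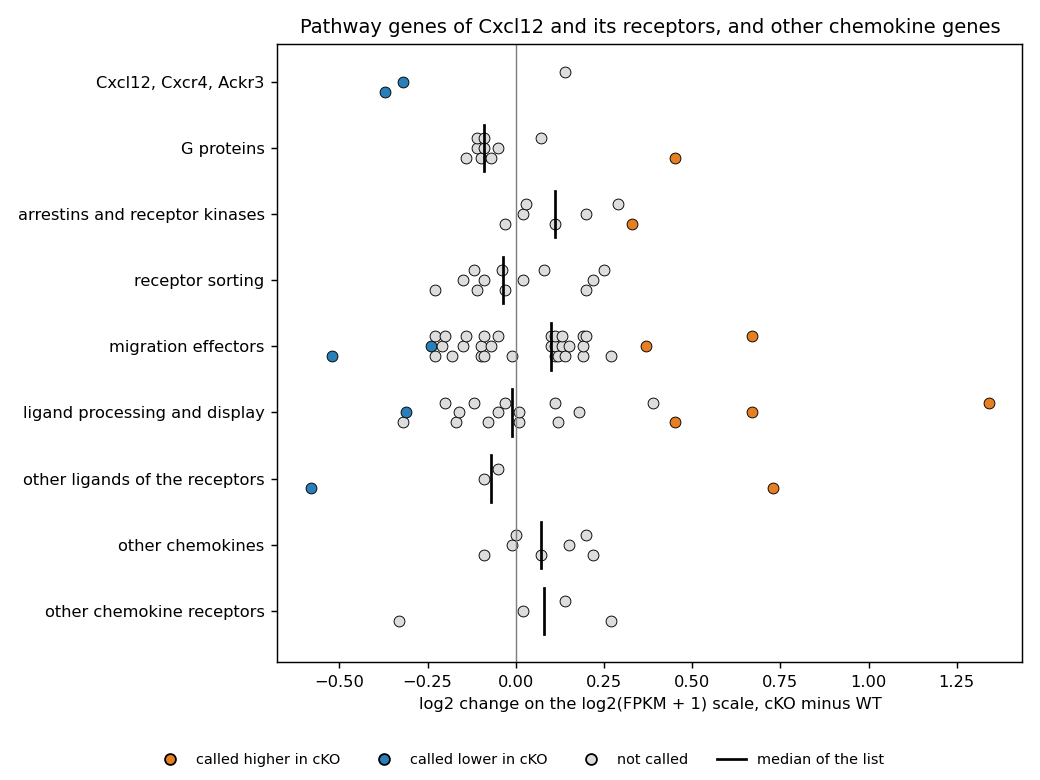
Log2 change, cKO minus WT, of each gene in 8 lists around Cxcl12 and its receptors; each point is a gene, orange called higher and blue called lower in cKO, and the black line is the median of the list. Most points are grey, the receptor genes lie at −0.32 and −0.37, and Ndst3 lies farthest right at 1.34.

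Few other chemokine genes were listed. Of 28 other chemokine genes 7 were in the table, and of 20 other chemokine receptor genes 4, and none of these 11 passed limma's test. Of these 11, 4 had an unadjusted p under 0.05, and 1 of the receptor genes was called higher without WT 2 and 1 lower with voom. The most abundant were Ccl27a, at 22.5 FPKM in cKO and 19.4 FPKM in WT, and Ackr1, at 19.0 FPKM in cKO and 17.1 FPKM in WT, though 25.7% of the exon length of Ackr1 is shared with Cadm3. Cx3cr1, the fractalkine receptor of microglia, was at 1.38, 1.98 and 1.66 FPKM in cKO and 2.71, 2.29 and 2.07 FPKM in WT (limma adjusted p = 0.069). Its ligand gene Cx3cl1 averaged 8.29 FPKM in cKO and 8.88 FPKM in WT.

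Cell markers were followed in 11 lists with 86 genes in the table, of which 4 rose, 17 fell and 65 did not pass, so 24.4% were called, against 15.8% of all genes. Of 20 interneuron markers, 6 fell (30.0%, against 8.59% of all genes) and 14 did not pass, with a median log2 change of −0.19. The most abundant of them, Npy, did not pass and averaged 106 FPKM in cKO and 89.6 FPKM in WT. Dlx2, a homeobox factor of interneurons, fell to 8.20 ± 1.02 FPKM in cKO, against 11.5 ± 0.645 FPKM in WT (limma adjusted p = 0.00965), and Sp8 to 1.801 ± 0.282 FPKM, against 2.74 ± 0.0262 FPKM. The call of Sp8 was lost when either of 2 libraries was left out (limma adjusted p of up to 0.0533, for cKO 1). Without WT 1, cKO 1 and cKO 2, 1, 2 and 2 interneuron markers were called lower. The summed level of the 20 markers was 269 to 287 FPKM in cKO and 281 to 302 FPKM in WT, which overlap. Npy alone gave 102 to 111 FPKM of the cKO sums and 72.7 to 108.5 FPKM of the WT sums. The mean of log2(FPKM + 1) of the 20 markers was 3.21 in cKO and 3.39 in WT, a difference of −0.19 with groups that do not overlap. Of single genes, 18.7% show no overlap in this direction. Microglia and oligodendrocyte lineage means also did not overlap (differences of −0.28 and −0.32). Those of Cajal-Retzius, endothelial, meningeal and intermediate progenitor markers overlapped, and the mean was not computed for the remaining lists. No marker was at 0. The part of these cells in the lower Cxcr4 and Ackr3 was not tested.

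Of 8 Cajal-Retzius markers, 1 fell, 1 rose and 6 did not pass. Calb2, which interneurons also express, fell to 5.45 ± 0.354 FPKM in cKO, against 8.05 ± 0.771 FPKM in WT (limma adjusted p = 0.00459). Cacna2d2 was at 7.18 ± 0.655 FPKM in cKO and 5.46 ± 0.384 FPKM in WT, a call lost without 4 libraries (limma adjusted p of up to 0.097 without cKO 1). The summed level of the 8 markers was 52.3 to 59.7 FPKM in cKO and 48.1 to 53.4 FPKM in WT.

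Cxcr4 is also known from microglia and from oligodendrocyte precursors. Of 8 microglia markers, 2 fell and 6 did not pass, and of 4 oligodendrocyte lineage markers, 2 fell and 2 did not pass, in lists too short to set firmly against the 8.59% of all genes called lower. Summed, the microglia markers reached 16.4 to 23.0 FPKM in cKO and 24.9 to 30.3 FPKM in WT, and the oligodendrocyte lineage markers 39.1 to 48.3 FPKM in cKO and 54.6 to 62.1 FPKM in WT, in both cases with no overlap, which 18.7% of single genes also show in this direction, and with cKO 1 lowest, as for Cxcr4. The summed radial glia and blood cell markers showed the same pattern, also with cKO 1 lowest. Radial glia markers summed to 366 to 468 FPKM in cKO and 572.6 to 586.6 FPKM in WT. Blood cell markers summed to 67.96 to 85.67 FPKM in cKO and 86.35 to 90.72 FPKM in WT. The sums of the remaining cell lists overlapped. Olig1 fell to 22.0 ± 2.31 FPKM in cKO, against 33.8 ± 1.35 FPKM in WT (limma adjusted p = 0.000981), and Pdgfra to 6.11 ± 0.523 FPKM, against 8.25 ± 0.528 FPKM. The complement genes C1qa and C1qb lost their calls without 3 and 5 libraries, with limma adjusted p of up to 0.0858 and 0.142 without WT 1, and without cKO 1, WT 1 or WT 3 no microglia marker was called lower. The call of Pdgfra was lost when either of 2 libraries was left out (limma adjusted p of up to 0.0566, for WT 1). The part of these cells in the Cxcr4 value was not tested.

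For the sources of Cxcl12 the markers differed. The 5 meningeal markers in the table were low, 2.23 to 2.91 FPKM in sum in cKO and 2.39 to 2.82 FPKM in WT, and none passed limma's test. None of 8 endothelial and 5 mural markers passed either, with summed endothelial levels of 35.5 to 39.9 FPKM in cKO and 36.8 to 43.7 FPKM in WT. Of these 18 markers, 3 had an unadjusted p under 0.05 and voom called none, while without WT 2, 2 endothelial markers were called higher. Of 7 intermediate progenitor markers, 3 rose, 1 fell and 3 did not pass, where 7.22% of all genes rose and 8.59% fell. Their summed level was 50.1 to 70.7 FPKM in cKO and 63.0 to 63.5 FPKM in WT, which overlap. The mean of their log2(FPKM + 1), 3.11 in cKO and 3.02 in WT, overlapped between the groups as well. Eomes, their defining transcription factor, rose to 10.1, 14.1 and 11.7 FPKM in cKO 1, 2 and 3, against 6.94, 6.999 and 6.40 FPKM in WT (log2 change 0.73, limma adjusted p = 0.00165). Neurog2 rose to 9.54 ± 1.90 FPKM in cKO, against 5.23 ± 0.629 FPKM in WT, and Sstr2 fell to 5.21 ± 0.648 FPKM, against 14.8 ± 3.28 FPKM.

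The remaining marker lists describe the tissue. Projection neuron markers were abundant, 714 to 753 FPKM in sum in cKO and 678 to 723 FPKM in WT, as the neocortex label implies. Of 8, 3 fell, among them Emx1 and Neurod2, and 5 did not pass. The cKO animals carry Emx1Cre/+ and the WT labels give no Cre, and the part of that allele in the Emx1 value was not tested. Neurod6, the most abundant of the 8, did not pass and averaged 351.5 FPKM in cKO and 296.3 FPKM in WT (limma adjusted p = 0.0507). The calls of Emx1 and Neurod2 were lost without 3 and 5 libraries (limma adjusted p of up to 0.0767 for Emx1 without WT 1 and 0.134 for Neurod2 without cKO 3). Without cKO 2, cKO 3 or WT 1 none of the 8 was called lower. Of 8 radial glia markers 1 fell, Fabp7, at 312 ± 47.5 FPKM in cKO and 454 ± 4.25 FPKM in WT (limma adjusted p = 0.00562). Among 5 blood cell markers 1 fell, Hbb-bs, at 32.7 ± 3.71 FPKM in cKO and 40.9 ± 0.154 FPKM in WT, whose reads can be shared with near-identical globin genes (a call lost without 3 libraries, limma adjusted p of up to 0.0822 without cKO 1). Among the genes named here, Rab7, Olig1 and Pdgfra share 7.82%, 7.26% and 6.50% of their exon length with other annotated genes.

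**Figure D5:**
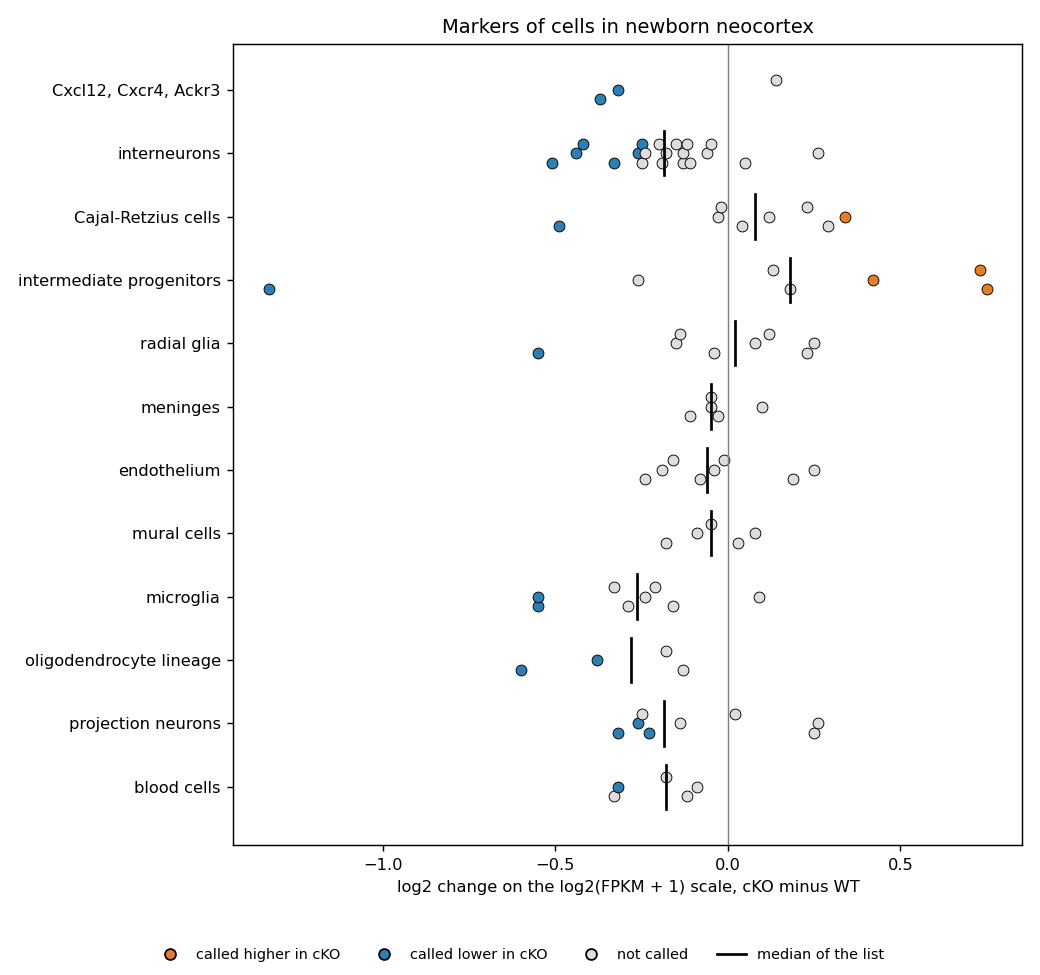
Log2 change, cKO minus WT, of marker genes of 11 kinds of cells, with Cxcl12, Cxcr4 and Ackr3 in the top row; each point is a gene, orange called higher and blue called lower in cKO, and the black line is the median of the list. Interneuron, microglia and oligodendrocyte lineage lists have medians of −0.19, −0.26 and −0.28, while meningeal, endothelial and mural lists have medians of −0.05 or −0.06. Projection neuron and blood cell lists have medians of −0.19 and −0.18. Cajal-Retzius, intermediate progenitor and radial glia lists have medians of 0.08, 0.18 and 0.02.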

How the data were processed

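Total RNA of dissected neocortex was sequenced from TruSeq libraries, 3 cKO and 3 WT, grouped by the sample titles. The authors deposited FPKM, per the file header. Per the submitters' processing notes, bcl2fastq 1.8.4, STAR 2.5.4b, featureCounts 1.6.1, R 3.4.1 and DESeq2 1.22.1 were used with mm10. Not given in the sources used here: annotation release, strand setting and low-gene filter. Of 15703 listed genes, 15661 matched GENCODE M21 by identifier. 139 blank lines were left out.

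Reads were estimated as FPKM × exon length × the smallest library size at which values of 1 to 50 reads came out whole. In genes of up to 3000 exon bases, 94.6% to 95.9% of values then lay within 0.1 of a whole read, and at a wrong size 17.5% to 19.7% did. These reads are approximate and serve for depth and 1 alternative.

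limma 3.58.1 (R 4.3.3) with a mean-variance trend and robust moderation was fitted to log2(FPKM + 1) of all genes, with genotype as the only term. The scale understates changes of low genes. P-values measure the spread between these libraries, taken as separate animals from 6 different codes in the titles. The fit was tested on simulated data. Summaries used Python 3.11.15, pandas 2.3.3 and numpy 2.4.6. Alternatives were the pseudocount, a filter on low values, scaling, moderation, voom on estimated reads, the replicate number and leaving out each library.

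The 3 genes and the lists were chosen with earlier results of these data known. Named were the called members of lowest p, at most 4 per pathway list (the 2 most abundant where none was called) and 3 per cell list, and the 4 genes most like each member. Mif, Hmgb1 and the values of Cxcl14 and Adm by library were added after their values were seen. A few genes taken by this rule are left out of the text.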

Additional observations from a re-analysis of the deposited data

How the results depend on the processing

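Cxcl12, Cxcr4 and Ackr3 kept their direction in all 13 alternatives. Median-ratio scaling, 1 of the 13, could hardly change a value, since its size factors were 1.003 in each library. Ackr3 was called in all but 1 of the 13 alternatives, with log2 changes of −0.43 to −0.37 under the 7 that use all libraries and −0.41 to −0.31 when a library was left out. Cxcr4 lost its call with limma without trend or robust moderation (−0.32, adjusted p = 0.0652) and with the replicate block, in which the replicate number was a term (−0.32, adjusted p = 0.0525), and ranged from −0.40 to −0.22 when a library was left out. The replicate block changed neither the call of Ackr3 (adjusted p = 0.0172) nor that of Cxcl12 (0.336). Libraries with the same number showed no clear shared deviation (r = −0.0427, 0.109 and −0.0377 over 13071 genes). Pairs with different numbers ranged from −0.224 to 0.223, and not every library correlated best with its own number. With 3 libraries per group, these values cannot decide whether the number pairs the animals.

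With voom on estimated reads, 13 pathway list members were called higher and 8 lower and 8 cell markers higher, against 8, 4 and 4 in the reported fit. The share of all genes that voom called is not given here, so these counts are no result about the lists. When a library was left out, genes called higher ranged from 544 to 1572 and lower from 830 to 1517, pathway members higher from 7 to 15 and lower from 2 to 4, and cell markers higher from 3 to 8 and lower from 5 to 18, and the cause was not tested. The lowest read number behind a member's value was 333, in Ackr3 of cKO 1, where counting error alone is about 5%.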
